A study of Mus musculus with 4 samples.

Results

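Dsg1a, Dsg1b, Dsg3, Dsc1, Dsc2, Dsc3, Dsp, Jup, Pkp1 and Pkp3, encode cadherins and plaque proteins of the epidermal desmosome. They are 10 of the 32479 genes in the count tables, were taken by symbol and not by any measured value, and were all counted in all 4 mice. Single-cell RNA was measured with the BD Rhapsody system in the dorsal epidermis of female C57BL/6N mice at postnatal day 19. There was 1 count table per mouse, called a library here, and 34150 cells were kept in all. Both genotypes carried floxed CerS4 alleles, which encode ceramide synthase 4. The 2 control mice were CerS4fl/fl K14Cre- and the 2 CerS4epi-/- mice were CerS4fl/fl K14Cre+. Cre under the keratin-14 promoter is active in basal keratinocytes and its deletion passes to their progeny, so the allele is lost throughout the interfollicular epidermis (IFE) and the hair follicles and not in 1 class of cells. Comparing the genotypes asks what changes in the epidermis without CerS4, and here what changes in its desmosome transcripts.

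Desmosomes are spot junctions that tie the keratin filaments of neighbouring keratinocytes together and let the epidermis withstand mechanical load. Desmogleins (Dsg) and desmocollins (Dsc) are transmembrane cadherins that bind their partners across the cell gap. Inside the cell their tails bind plakoglobin (Jup) and plakophilins (Pkp), and these bind desmoplakin (Dsp), which anchors the keratin filaments. The cadherins are exchanged as keratinocytes leave the basal layer: Dsg3 and Dsc3 are known as the forms of the lower epidermis, Dsg1 and Dsc1 as those of the upper layers.

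Cells of a mouse were summed by class, so the mouse was the replicate and levels are given as CPM, counts scaled to a total of 1000000 per mouse and class. Where 4 values are given, they are in the order control 1, control 2, CerS4epi-/- 1 and CerS4epi-/- 2. The mice had 7567 to 9086 cells with median depths of 3266.5 to 3884 counts per cell, and the median share of mitochondrial counts was 8.66% and 8.56% in the control mice against 9.94% and 9.68% in the CerS4epi-/- mice. No cell barcode was shared by the 2 libraries of a genotype, although 87.1 and 77.1 would be shared if barcodes were drawn independently, whereas 64 to 102 were shared between genotypes. Cells were labelled with multiplexing tags before loading, and the barcodes show no sign that mice of different genotypes were loaded together, so genotype and capture run cannot be told apart. If the 2 mice of a genotype were loaded together, the spread between them leaves out differences between captures. The p-values below rest on that spread. CerS4 itself was sparse, with 697, 145, 202 and 270.5 counts of Cers4 in all cells and 8, 6, 4 and 1 in basal cells. The genotypes overlapped over all cells, and which exons are lost and which are covered by the counted reads is not given in the sources used here, so these counts do not check the labels.

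Clusters were built without the 10 genes and named from marker lists. They gave 11101 IFE basal-like, 900 cycling-like, 9257 IFE differentiated-like, 2909 IFE keratinized-like, 5279 cells of the upper hair follicle-like class, 190 of the inner bulge-like class and 76 of the sebaceous gland-like class. A further cluster of 3708 cells had no name by this rule. Its leading genes were Aldh3a1, Igfbp4 and Spock2, with Fst and Sostdc1 among the next ones, and it is called the Sostdc1/Fst cluster here, and 62 cells in another cluster stayed unnamed. In basal-like cells 8 basal keratinocyte markers summed to 32262 to 34605 CPM per mouse, against 4.79 to 6.60 CPM for 4 endothelial markers. These cells were named from the same marker lists, so the sums do not check the tissue label. The remaining cells, 456 of them T cell-like and 212 Langerhans cell-like, do not form desmosomes and give the background from free RNA and doublets.

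The plaque genes are scattered over the genome (GRCm39): Dsp lies at chr13:38335230-38382553 on the plus strand with 24 exons, Jup at chr11:100259784-100291103 on the minus strand with 14, Pkp1 at chr1:135799133-135846945 on the minus strand with 14, and Pkp3 at chr7:140658040-140670423 on the plus strand with 13. Dsp and Jup sit on different chromosomes but had the most similar pattern across cells of all pairs among the 10 genes. Their promoters are shown because no other of the 10 genes had a sequence at hand. Each is the 250 bases before the annotated start in RefSeq (GRCm38.p6), 5′ to 3′ on the strand of the gene, at chr13:38151044-38151293 on the plus strand for Dsp and at chr11:100397791-100398040 on the minus strand for Jup. Capitals mark CACCC, on either strand, a motif bound by Krüppel-like factors.
Dsp: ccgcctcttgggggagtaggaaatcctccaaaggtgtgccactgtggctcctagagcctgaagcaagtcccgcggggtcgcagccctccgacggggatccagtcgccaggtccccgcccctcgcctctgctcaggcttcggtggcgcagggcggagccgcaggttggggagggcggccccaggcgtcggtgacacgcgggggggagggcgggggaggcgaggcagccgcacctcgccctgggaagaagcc
Jup: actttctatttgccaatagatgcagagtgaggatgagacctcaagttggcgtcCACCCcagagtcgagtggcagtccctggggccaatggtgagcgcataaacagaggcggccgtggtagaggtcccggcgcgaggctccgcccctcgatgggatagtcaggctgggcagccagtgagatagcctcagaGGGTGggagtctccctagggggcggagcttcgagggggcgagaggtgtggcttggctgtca
The Jup sequence held CACCC at base -197 and its reverse complement GGGTG at base -61 before the start, and the Dsp sequence held neither. Neither promoter held the AP-1 motif TGANTCA or TATAAA. Over 32851 promoters of this length, CACCC was found on either strand in 52.0%, TGANTCA in 6.75% and TATAAA in 12.4%. A sequence was at hand for 2 of the 10 genes.

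Both cadherin families, by contrast, lie side by side. All 6 cadherins described here belong to a run of 9 genes at chr18:20093987-20737581 of GRCm39, in the order Dsc3, Dsc2, Dsc1, Dsg1c, Dsg1a, Dsg1b, Dsg4, Dsg3 and Dsg2. The 3 desmocollins are on the minus strand and the desmogleins on the plus strand. Dsg1a, Dsg1b and Dsg1c are near-identical copies, and reads that fit several were shared among them by the authors' counting. Among entries of the tables above 0, 33.7% were not whole for Dsg1b, 58.4% for Dsg1c and 2.43% for Dsg1a, so the Dsg1b level is uncertain, and this share was at most 0.13% for the other 8 genes.

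Across keratinocytes the desmogleins split by layer. Dsg1a, the main desmoglein of the upper epidermis, was at 522, 612, 478 and 450.1 CPM in basal cells and at 2191, 2304, 2049.5 and 2224 CPM in differentiated cells. Within each mouse the differentiated level was 3.76 to 4.94 times the basal level, and the differentiated cells of every mouse were above those of every other keratinocyte class. In the keratinized class it was lower again, at 828 to 1141 CPM, and in the Sostdc1/Fst cluster it was lowest, at 116 to 324 CPM. Its T cell-like level of 58.0 to 218 CPM, which overlapped the cycling and Sostdc1/Fst values, was 6.65% of the differentiated mean. Dsg1b was also highest in differentiated cells, at 20.8 to 25.2 CPM.

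Dsg3, the desmoglein of the lower epidermis and the follicle, had nearly the opposite order. It was highest in the inner bulge-like cells, at 380.1, 289, 447 and 502 CPM, followed by cycling cells at 128 to 165 CPM and basal cells at 109 to 117 CPM. Levels then dropped through the differentiated cells, at 12.8 to 27.6 CPM, to the keratinized cells at 1.99 to 5.08 CPM. Within a mouse the basal level was 23.0 to 54.9 times the keratinized level. The differentiated and keratinized values overlap the T cell-like level of 3.41 to 26.1 CPM, which rests on 1 to 5 counts per mouse, so in the keratinized class Dsg3 cannot be told from background. Among neighbours in the order of mean levels, only the Sostdc1/Fst cluster and the upper hair follicle-like cells overlapped between mice. The upper hair follicle-like values also overlapped the basal values, and within a mouse they were 0.337 to 1.05 times the basal level.

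Among the keratinocyte classes tested, the 3 desmocollins had their highest means in different classes. Dsc1, the desmocollin of the uppermost layers, was at 1.80 to 3.17 CPM in basal cells, 69.4 to 97.0 CPM in differentiated cells and 171 to 195 CPM in keratinized cells. Within a mouse the differentiated level was 24.4 to 45.5 times and the keratinized level 55.7 to 109 times the basal level, the steepest rise from the basal layer among the 10 genes. The basal mean was 0.014 of the keratinized mean, and the T cell-like mean was 2.19% of it. The basal level therefore cannot be told from background, and the size of these folds is uncertain. Only 1 count of Dsc1 was seen in the inner bulge-like cells of the 4 mice. Dsc3, the desmocollin of the lower layers, was at 665 to 723 CPM in basal cells and 1355 to 1444 CPM in differentiated cells, and then dropped to 79.9 to 137 CPM in keratinized cells, where the basal level was 4.98 to 8.68 times higher. Those keratinized values overlapped the T cell-like level of 64.8 to 238 CPM.

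Dsc2, the most widespread desmocollin of epithelia, was sparse, with 146 to 264 counts per mouse over all cells. It was at 30.7, 8.39, 28.6 and 67.4 CPM in inner bulge-like cells, from 8, 2, 5 and 11 counts, and at 1.34 to 1.98 CPM in basal cells. Sebaceous gland-like cells, which numbered 12, 3, 26 and 35 and were too few for a test, had 12, 0, 41 and 11 counts. These were out of totals of 225655, 28125, 464715 and 448909 counts, against 260445, 238502, 174620 and 163279 in inner bulge-like cells. The Dsc2 mean was highest in the inner bulge only among the keratinocyte classes tested. Its values there overlapped those in upper hair follicle-like cells. T cell-like cells had none in any mouse.

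The plaque genes varied less. Dsp was at 1875 to 1952 CPM in basal cells and 4072 to 4398 CPM in differentiated cells, and Jup at 747 to 799 and 1712 to 1835 CPM. Within a mouse the differentiated level was 2.11 to 2.34 times the basal level for Dsp and 2.22 to 2.46 times for Jup. Both were also high in the follicle, with Dsp at 4031 to 4820.5 CPM in upper hair follicle-like and 3421 to 4404 CPM in inner bulge-like cells, which overlap the differentiated values. Both stayed high in the keratinized cells, at 2851 to 3486 CPM for Dsp and 1540.2 to 1589 CPM for Jup, where Dsc3 and Dsg3 were at their lowest. Pkp1, a plakophilin of the suprabasal layers, was at 2104 to 2424 CPM in differentiated cells and at 654 to 921 CPM in keratinized cells, below its basal level of 1078 to 1250.0 CPM. In the inner bulge Pkp1 was at 2096 to 2377 CPM, again overlapping the differentiated level. Pkp3, a plakophilin of all living layers, was the flattest, with a highest class mean 1.55 times the lowest and no neighbouring classes apart in all mice. Its T cell-like mean was 34.6% of its highest class mean.

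**Figure D1:**
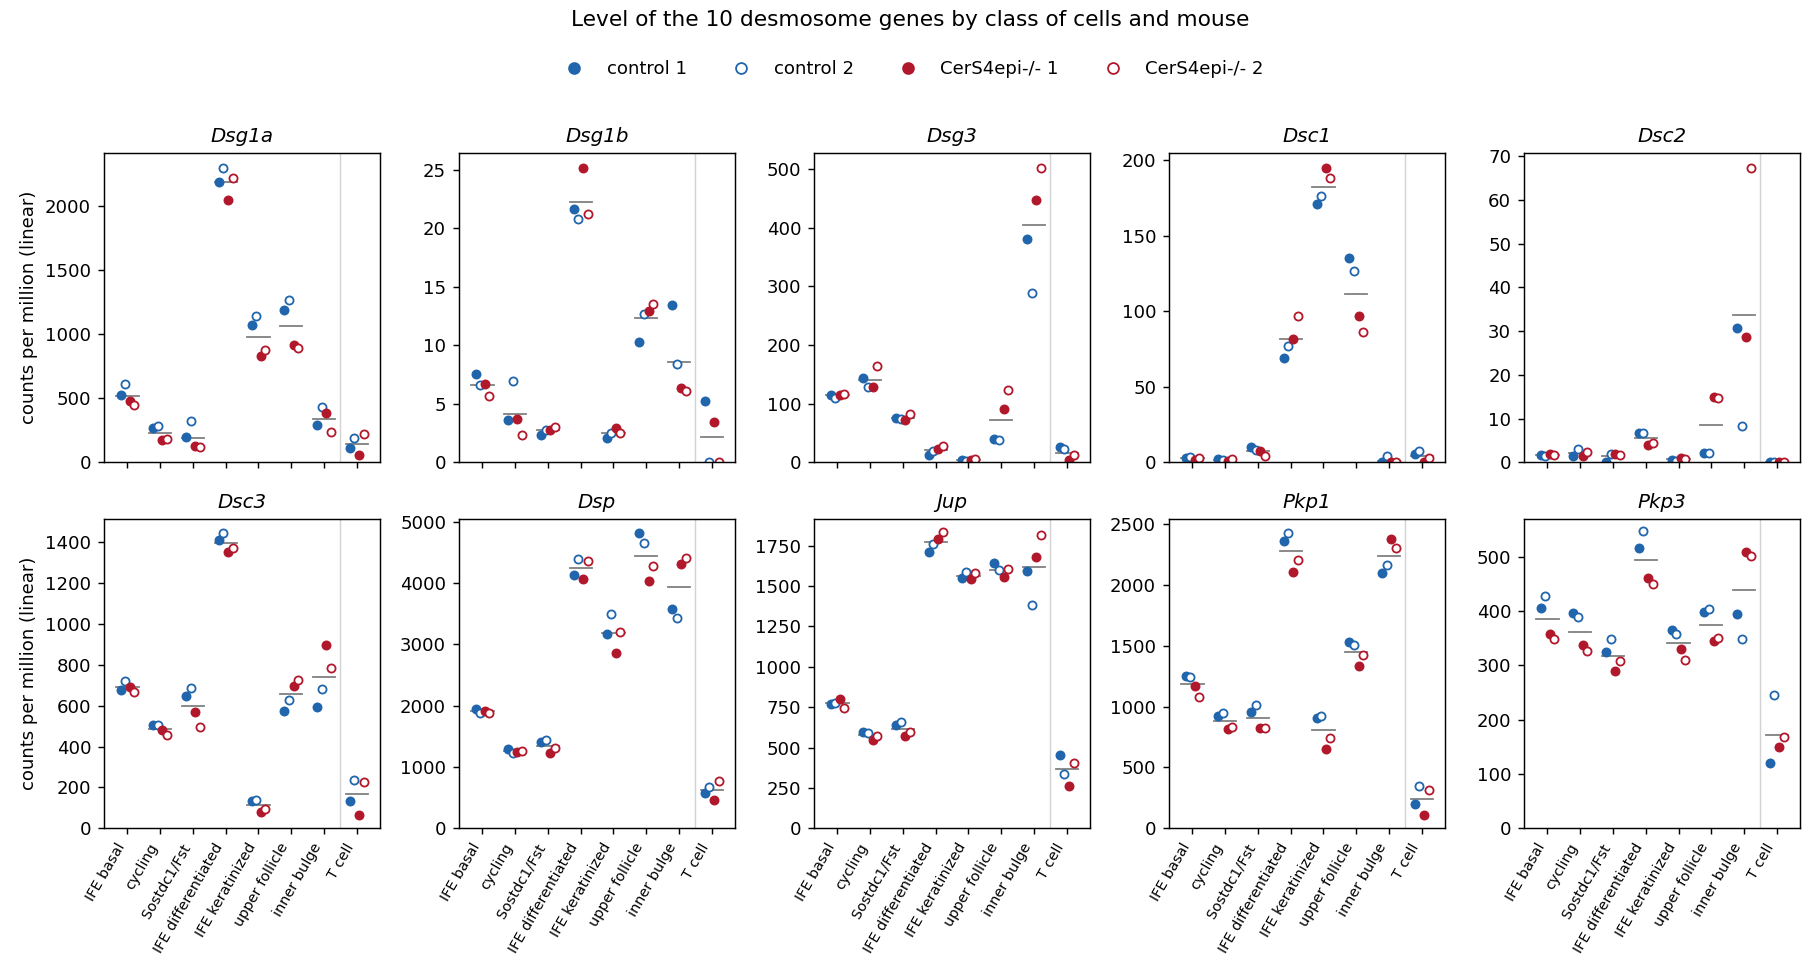
Level of each of the 10 genes in CPM (linear axis, own scale per gene) by class of cells. Each point is 1 mouse, blue control and red CerS4epi-/-, the grey line is the mean of the 4 mice, and T cell-like cells right of the line give the background. Among the keratinocyte classes shown, the mean of Dsg1a, Dsg1b and Dsc3 is highest in differentiated cells, of Dsc1 in keratinized cells, and of Dsg3 and Dsc2 in the inner bulge.

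Some neighbouring cadherin genes were high in different cells, while Dsg1a and Dsg1b were both highest in differentiated cells and Dsg4 and Dsg3 both in the inner bulge. Dsc1 lies between Dsc2 and Dsg1c, and its mean in the inner bulge was 0.0057 of its keratinized mean, whereas that of Dsc2 in keratinized cells was 0.019 of its inner bulge mean. At the other end, Dsg4 was counted at 5.73 to 12.2 CPM in the inner bulge and at most 0.304 CPM in any other keratinocyte class tested. It had only 10 counts, in 9 cells, over all cells of the 4 mice, so its order over the classes is uncertain. Dsg2, a widely expressed desmoglein at the end of the run, was at 42.9 to 74.8 CPM in basal and 1.95 to 2.88 CPM in differentiated cells.

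**Figure D2:**
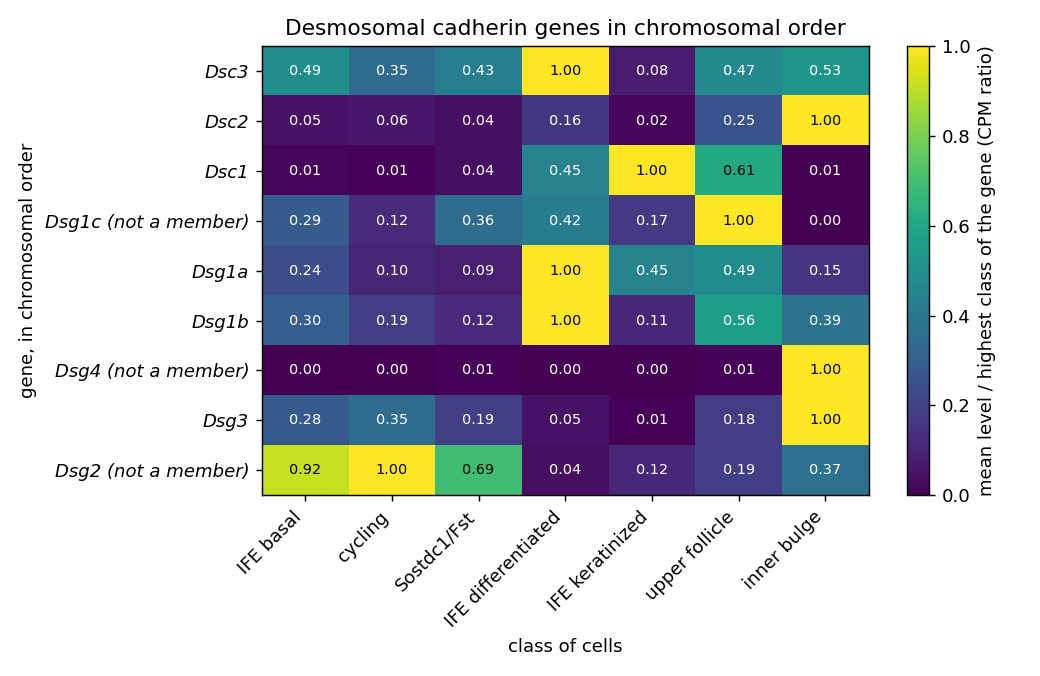
Desmosomal cadherin genes in their order on the chromosome (rows) against the keratinocyte classes (columns). Each cell of the map is the mean level over 4 mice divided by the mean in the gene's highest class (1.00), so rows are not comparable in level. Adjacent rows such as Dsc2 and Dsc1, or Dsg1b and Dsg4, peak in different columns, but Dsg4 had only 10 counts over all cells.

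Over the 28 sums of 7 classes in 4 mice, Pearson's r of log2(CPM + 1) was 0.981 for Dsp and Jup, 0.822 for Dsg1b and Pkp1, 0.814 for Pkp1 and Pkp3, -0.607 for Dsg1a and Dsg3 and -0.846 for Dsg3 and Dsc1. These are descriptions, since the points share mice, libraries and depth. Among 8632 genes with a mean of at least 10 CPM, Jup was the gene most like Dsp, and Dsp the third most like Jup after Ly6g6c (r = 0.985) and Nectin4 (r = 0.984). The genes most like Dsg1a were Hacd2, Prr13 and Mvk, with r of 0.946 to 0.939. Skint3, Me1 and Ptk6 were closest to Dsc1 (r of 0.974 to 0.972), Hspa2, Rab6a and Dctn2 to Dsc2 (0.902 to 0.875), and Atp2b4, Anxa7 and Rab22a to Dsc3 (0.956 to 0.949). Aldh3b2, Lgals3 and Adam17 were closest to Dsg1b (0.904 to 0.843), Lgals3, L1cam and Ptprf to Pkp1 (0.940 to 0.934), and Taf13, Cdc42 and Wdr47 to Pkp3 (0.925 to 0.860).

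The largest differences between the genotypes among the 10 genes were a rise of Dsc2 and Dsg3 in the upper hair follicle. In upper hair follicle-like cells Dsc2 was at 2.13 and 2.07 CPM in the control mice, from 7 and 5 counts, and at 15.0 and 14.7 CPM in the CerS4epi-/- mice, from 123 and 101 counts. Both CerS4epi-/- mice were above both controls, and Dsc2 rose by a log2 fold change of 2.86 (SE 0.30, adjusted p = 0.000113, edgeR quasi-likelihood test, as for every adjusted p below). It was seen in 0.678% and 0.640% of control cells and in 3.55% and 4.16% of CerS4epi-/- cells, at the median depths of 2386 to 3563 counts per cell given below. Of 456 T cell-like cells, with median depths of 1541 to 1904 counts, none had a count, which allows a share of up to 0.658%. After thinning each cell to 1200 counts these shares were 0.194%, 0.256%, 0.886% and 0.904%.

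Dsg3 was at 38.9, 38.0, 90.2 and 123 CPM in the same cells. The groups did not overlap, and Dsg3 rose by 1.52 on the log2 scale (SE 0.16, adjusted p = 0.000141). Dsc1, at 135, 127, 96.6 and 86.3 CPM, fell by 0.46 (SE 0.10, adjusted p = 0.0101), and Dsg1a, at 1188, 1266, 917 and 893 CPM, fell by 0.38 (SE 0.10, adjusted p = 0.0251). Thus 2 of the 10 genes rose and 2 fell, where 9.03% of the 11613 genes tested rose and 7.38% fell. Dsc3 was at 575, 628, 696 and 724 CPM, with a log2 fold change of 0.30 (adjusted p = 0.0674), and the 4 plaque genes had log2 fold changes between -0.15 and 0.02.

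The upper hair follicle-like class holds 2 clusters, and they differed in these genes. A cluster led by Klk10, Krt6a and Cst6 held 28.1%, 21.5%, 44.6% and 53.1% of the class's cells, and the remaining cells were in a cluster led by 2310046K23Rik, Krt79 and Krt17. Within the Klk10/Krt6a cluster Dsg3 was at 123, 134, 174 and 199 CPM and rose by 0.66 (SE 0.14, adjusted p = 0.0112). Dsc2 there was at 7.03, 8.50, 29.8 and 24.8 CPM, from 6, 4, 118 and 99 counts, and rose by 1.95 (SE 0.36, adjusted p = 0.00464). In this cluster 5.66% of 10292 genes rose and 3.88% fell, and Dsc1 had a log2 fold change of -0.67 (adjusted p = 0.0530). Within the Krt79/Krt17 cluster, where 2.99% of 10138 genes rose and 2.94% fell, none of the 9 genes tested passed. Dsg3 was there at 9.44, 14.9, 12.4 and 17.7 CPM (log2 fold change 0.32, 95% interval -0.27 to 0.91), Dsc2 had 1, 1, 5 and 2 counts, and Dsc1 changed sign to 0.02 (95% interval -0.22 to 0.25). With both clusters scaled to the same share of the class's counts in all mice, Dsg3 rose by 0.56 (adjusted p = 0.0127) and Dsc2 by 1.76 (adjusted p = 0.00410), and the log2 fold changes of Dsc1 and Dsg1a were -0.10 (adjusted p = 0.560) and -0.24 (adjusted p = 0.0826).

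The extent of the class depended on the clustering. At resolution 1.2, 865 cells (81, 55, 361 and 368) led by Krt6a, Cald1 and Klk10 formed a cluster of their own, as did 745 cells (33, 23, 335 and 354) without Harmony. Of the marker lists the outer bulge list scored highest in both, but the rule left them unnamed, so they were outside the upper hair follicle-like class. Without them Dsg3 rose by 0.92 (adjusted p = 0.0195) and 0.88 (adjusted p = 0.00976) and Dsc2 by 2.97 (adjusted p = 0.0283) and 2.79 (adjusted p = 0.0343), whereas Dsc1 (-0.16 and -0.23) and Dsg1a (-0.25 and -0.30) did not pass.

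**Figure D3:**
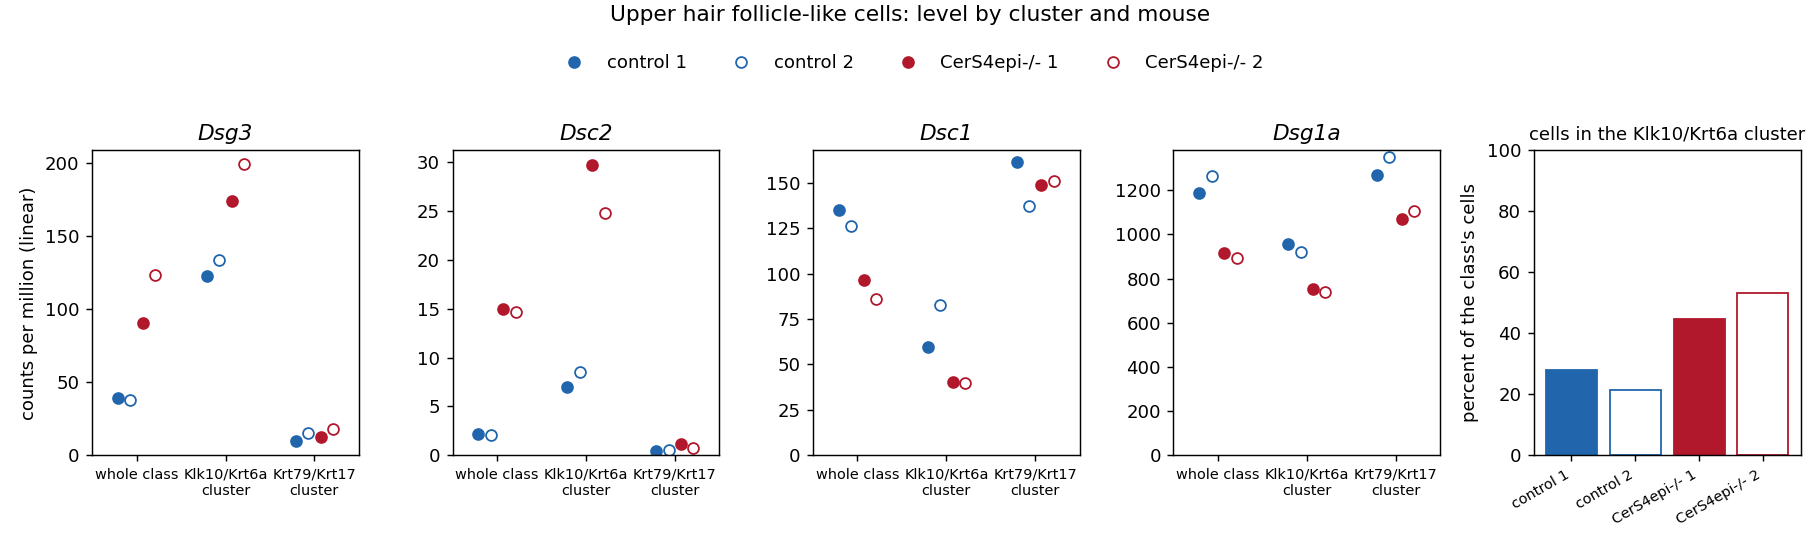
Dsg3, Dsc2, Dsc1 and Dsg1a in upper hair follicle-like cells, in CPM (linear axes), for the whole class and for its 2 clusters, 1 point per mouse. The bars give the percent of the class's cells in the Klk10/Krt6a cluster, 28.1% and 21.5% in control and 44.6% and 53.1% in CerS4epi-/- mice. Dsg3 and Dsc2 are higher in the Klk10/Krt6a cluster and Dsc1 in the Krt79/Krt17 cluster in all 4 mice.

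Other measures moved in the same cells. Of 7 upper hair follicle markers 5 rose, with a sum of 29727 to 33081 CPM in control and 41712 to 48099 CPM in CerS4epi-/- mice, whereas 4 of 6 markers of differentiated IFE fell, with a sum of 22802 to 24264 against 13569.7 to 14978 CPM. Of 11 keratinized markers 2 rose and 6 fell, with a sum of 4311 to 4727 against 3011 to 3719 CPM, and of 8 outer bulge markers 1 rose and 3 fell, with a sum of 1401 to 1547 against 1293 to 1373 CPM. Of the 4 inner bulge markers, which include Krt6a, 3 were tested, 2 rose and 1 fell, and their sum was 659 to 742 against 1659 to 3391 CPM. Median depth was 2630 and 2386 counts per cell in control against 3563 and 3219 in CerS4epi-/- mice, and the median mitochondrial share was 6.88% and 6.50% against 9.47% and 9.13%. The part of these in the changes of the desmosome genes was not tested. None of 9 dissociation genes passed in this class.

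Dsc2 and Dsg3 kept their call in this class when any mouse was left out, with log2 fold changes of 2.84 to 2.91 and 1.30 to 1.76. Dsc1 lost it without control 1 (-0.38, adjusted p = 0.134) or CerS4epi-/- 2 (-0.37, adjusted p = 0.0720). Dsg1a lost it without any of control 1, control 2, CerS4epi-/- 1 and CerS4epi-/- 2, at -0.40, -0.34, -0.38 and -0.35.

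In basal cells none of the 10 genes passed the test, where 2.47% of 12588 genes rose and 1.31% fell. Dsg3 was at 116, 109, 114 and 117 CPM and Dsc2 at 1.69, 1.34, 1.98 and 1.63 CPM in IFE basal-like cells, and the mice of the 2 genotypes overlapped for both. The effect of genotype in the upper hair follicle exceeded that in basal cells by 1.43 for Dsg3 (SE 0.16, adjusted p = 3.89e-05) and by 2.57 for Dsc2 (SE 0.52, adjusted p = 0.00611), where this difference was positive and passed for 3.66% and negative and passed for 3.08% of 13139 genes. Without control 1 the difference for Dsc2 was 2.43 (adjusted p = 0.0629). The basal cells divide into 2 clusters, and in the smaller one, with 23.4% of the CerS4epi-/- and 20.1% of the control cells, Dsg1a fell by 0.35 (adjusted p = 0.0233), a comparison added after the clusters had been seen.

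**Figure D4:**
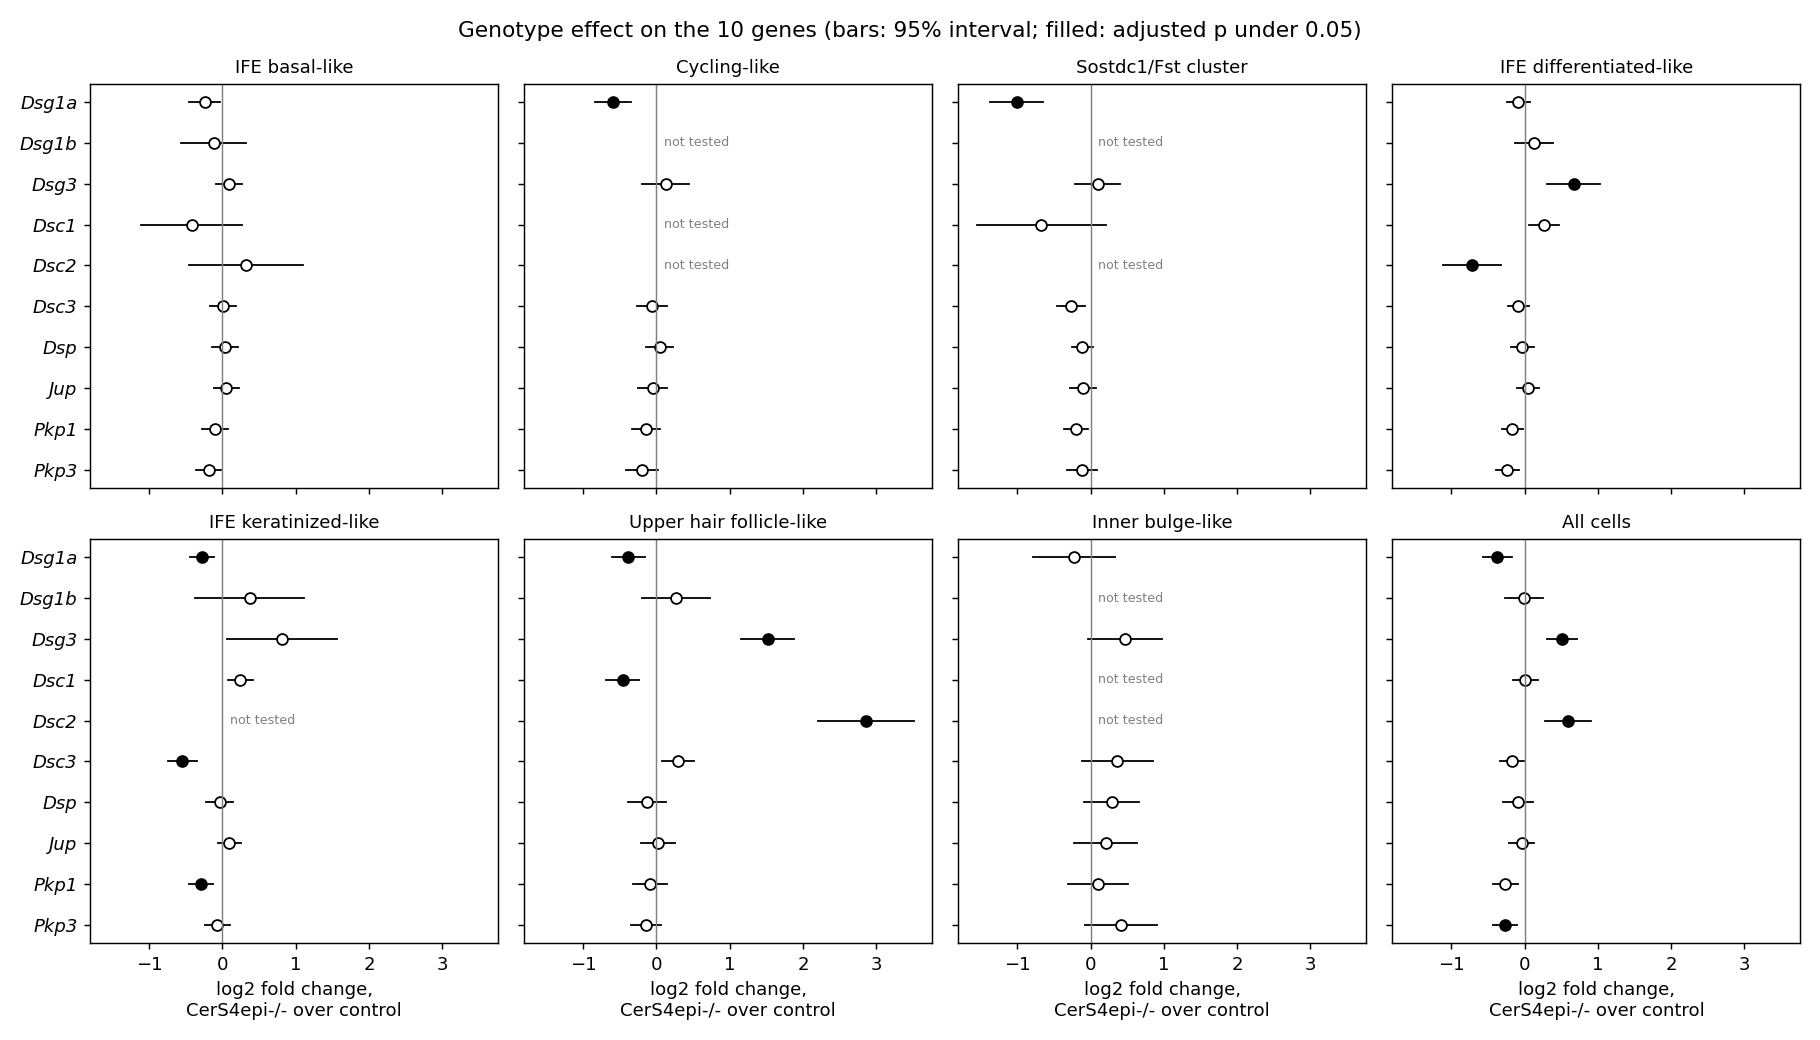
Log2 fold change of CerS4epi-/- over control for each of the 10 genes (rows) in each class and in all cells together (panels), from 2 mice per genotype. Bars are 95% intervals of the edgeR fit, and filled points have an adjusted p under 0.05. Dsc2 at 2.86 and Dsg3 at 1.52 in the upper hair follicle stand to the right, and Dsg1a is below 0 in all 8 panels, with 5 of its points filled.

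Dsg1a also fell in the Sostdc1/Fst cluster and in cycling cells. In the Sostdc1/Fst cluster it was at 195, 324, 129 and 116 CPM, with both CerS4epi-/- mice below both controls, and fell by 1.01 on the log2 scale (SE 0.17, adjusted p = 0.00184). The values of control 1 and both CerS4epi-/- mice lie within the T cell-like level of Dsg1a given above. Dsg1a was the 1 gene to pass of the 8 tested there, where 2.93% of 10382 genes rose and 2.79% fell. The call held without each mouse, at -0.62 without control 2 and between -1.35 and -0.62 over the 4 fits. In cycling-like cells Dsg1a was at 269, 282, 174 and 183 CPM, the CerS4epi-/- values being within that T cell-like level. It fell by 0.59 (SE 0.11, adjusted p = 0.0382), 1 of 7 tested, where 0.444% of 9458 genes rose and 0.159% fell. That call was lost without control 1 (-0.62, adjusted p = 0.788) and without control 2 (-0.56, adjusted p = 0.796), fits in which no gene passed. Markers of differentiated IFE were lower in the same cells, with 2 of 5 tested falling in the Sostdc1/Fst cluster, from 1188 to 1489 in control to 832 to 841 CPM in CerS4epi-/- mice in sum, and 3 of 6 falling in cycling cells, from 2419 to 2962 to 1244 to 1473 CPM. Upper hair follicle markers were higher, with 6 of 7 and 4 of 7 rising, and 5 of 9 dissociation genes fell in the Sostdc1/Fst cluster. Their part in the change of Dsg1a was not tested.

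In the differentiated cells Dsg3 and Dsc2 moved in opposite directions. Dsg3 was at 12.8, 18.5, 23.2 and 27.6 CPM and rose by 0.67 (SE 0.16, adjusted p = 0.0366). Dsc2 was at 6.74, 6.74, 3.92 and 4.37 CPM, from 106, 116, 58 and 43 counts, and fell by 0.72 (SE 0.18, adjusted p = 0.0380), the reverse of its direction in the upper hair follicle. The groups did not overlap in either, nor in Pkp1, Pkp3, Jup, Dsc3 and Dsc1, which did not pass. How often this held over all genes was not counted. In this class 4.42% of 12894 genes rose and 3.65% fell. Neither the Dsg3 nor the Dsc2 call held in all fits. Dsg3 lost its call without CerS4epi-/- 2 (0.57, adjusted p = 0.0754), and was at 0.43 without control 1 and 0.96 without control 2. Dsc2 lost it without each mouse (-0.77 to -0.66, adjusted p of 0.0554 without control 1, 0.0629 without control 2, 0.140 without CerS4epi-/- 1 and 0.0691 without CerS4epi-/- 2). Neither passed within either of the 2 clusters of the class (adjusted p of 0.235 and 0.358 for Dsg3, 0.425 and 0.0737 for Dsc2) or with these reweighted (0.47, adjusted p = 0.144, for Dsg3 and -0.61, adjusted p = 0.0730, for Dsc2). The Dsg3 level is close to the T cell-like background. The difference of its effect from that in basal cells was 0.58 (adjusted p = 0.0708), and none of the 10 genes passed that test, in which 1.01% of 13150 genes were higher and 0.654% lower. Dsc1 was at 69.4, 77.2, 81.7 and 97.0 CPM (log2 fold change 0.27, adjusted p = 0.112), and it passed within the cluster led by Alox12 (0.53, adjusted p = 0.00440) and with clusters reweighted (0.51, adjusted p = 0.00507). Of the marker lists, 5 of 7 upper hair follicle markers, 4 of 7 outer bulge markers tested and 2 of 8 basal markers rose in these cells, as did 6 of 9 dissociation genes. The outer bulge markers summed to 138 to 162 CPM in control and 225 to 234 CPM in CerS4epi-/- mice. Of 11 keratinized markers 4 rose and 2 fell. The part of these in the changes was not tested.

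In keratinized cells 3 of the 9 genes tested fell and none rose, where 8.72% of 11054 genes rose and 5.75% fell. Dsc3 was at 136, 137, 79.9 and 94.9 CPM and fell by 0.55 (SE 0.09, adjusted p = 0.00286), but all of these values lie within its T cell-like level given above. Median depth was 10058 to 12684 counts per keratinized cell against 1541 to 1904 per T cell-like cell. Equal CPM are thus not equal counts per cell, and the background of Dsc3 per cell was not tested. Pkp1 was at 903, 921, 654 and 740.4 CPM and fell by 0.29 (SE 0.07, adjusted p = 0.0279), and Dsg1a was at 1071, 1141, 828 and 876 CPM and fell by 0.28 (SE 0.07, adjusted p = 0.0304). In all 3 both CerS4epi-/- mice were below both controls, as they were in Pkp3, which did not pass. They were above both controls in Dsc1, Dsg1b and Dsg3, which did not pass either. Dsc3 fell in the larger cluster led by F3 and Serpina12 (-0.59, adjusted p = 0.00205) and did not pass in the one led by Lce1 genes (-0.00, 95% interval -0.58 to 0.57). The difference between the clusters was not tested. Its call in the class held without each mouse. Pkp1 lost its call without control 1 (-0.32), control 2 (-0.26) or CerS4epi-/- 1 (-0.23), and Dsg1a without control 2 (-0.21) or CerS4epi-/- 1 (-0.27). Dsg1a fell by 0.75 in the Lce1 cluster (adjusted p = 0.0438) and did not pass in the F3/Serpina12 cluster (-0.21, adjusted p = 0.0649) or with clusters reweighted (-0.23, adjusted p = 0.0819). Pkp1 passed in the F3/Serpina12 cluster (-0.28, adjusted p = 0.0328) and not in the Lce1 cluster (-0.33, adjusted p = 0.238). Dsc1, at 171, 176, 195 and 188 CPM, had a log2 fold change of 0.24 (adjusted p = 0.0590). It rose in the F3/Serpina12 cluster (0.33, adjusted p = 0.0212) and with clusters reweighted (0.28, adjusted p = 0.0475), and was at -0.24 (adjusted p = 0.544) in the Lce1 cluster. Of 11 keratinized markers 9 rose and of 9 dissociation genes 7 rose in this class. Of 7 upper hair follicle markers 4 rose and 1 fell, 3 of 6 outer bulge markers tested rose, and 3 of 5 Langerhans cell markers tested fell, from a sum of 39.6 to 43.7 CPM in control to 14.3 to 14.4 CPM in CerS4epi-/- mice. The part of these was not tested.

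The inner bulge-like class had 67, 56, 33 and 34 cells. None of 7 genes tested passed there, and 0.223% of 3593 genes rose and 0.445% fell. Dsg3 at 380.1, 289, 447 and 502 CPM had a log2 fold change of 0.47 with a 95% interval of -0.04 to 0.98. The interval includes 0, and the mice of the 2 genotypes did not overlap. Nor did they in Pkp1, Pkp3, Jup, Dsp and Dsc3, which were also higher in both CerS4epi-/- mice and have intervals that include 0. The same count over all genes was not made.

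Summed over all cells, where a shift in the makeup of the cells and a change within them cannot be told apart, 2 of the 10 genes rose and 2 fell, against 8.17% and 6.04% of 16034 genes. Dsg3 was at 46.6, 44.1, 59.2 and 70.6 CPM and rose by 0.51 (SE 0.09, adjusted p = 0.0155), and Dsc2 was at 3.86, 3.39, 5.50 and 5.46 CPM and rose by 0.59 (SE 0.13, adjusted p = 0.0340). Dsg1a was at 1309, 1428, 1058 and 1066 CPM and fell by 0.37 (SE 0.08, adjusted p = 0.0318), and Pkp3 was at 432, 453, 374 and 361 CPM and fell by 0.27 (SE 0.07, adjusted p = 0.0455). The groups did not overlap in any of the 4, nor in Pkp1, Jup, Dsp and Dsc3, which did not pass. The share of all genes without overlap was not counted, so this has no background to be read against. Dsg3 held without each mouse, at 0.39 to 0.62. Without control 2, CerS4epi-/- 1 or CerS4epi-/- 2 the others lost their call, at 0.52, 0.57 and 0.61 for Dsc2, -0.29, -0.38 and -0.36 for Dsg1a, and -0.22, -0.31 and -0.23 for Pkp3. The upper hair follicle-like class, in which Dsg3 and Dsc2 rose, numbered 1033 of 8480 and 781 of 9086 cells in the control mice and 1805 of 9017 and 1660 of 7567 in the CerS4epi-/- mice.

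Dsp, Jup and Dsg1b did not pass in any comparison. Over the 7 classes and all cells, Jup had log2 fold changes of -0.10 to 0.20 and Dsp of -0.13 to 0.29, with the widest intervals in the inner bulge (-0.23 to 0.64 for Jup and -0.09 to 0.66 for Dsp). Dsg1b was tested in 5 of these sums, with log2 fold changes of -0.12 to 0.37. In total, 17 calls were made over the classes, all cells and the 2 differences between classes, 13 of them in the cadherins Dsg1a, Dsg3 and Dsc2. All cells and the differences reuse the cells of the classes, so these calls are not independent. Over all genes tested, 0.159% to 9.03% passed in 1 direction, depending on the comparison.

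Of the other desmosome genes, none of which is among the 10, few passed. Dsg2 rose by 0.66 in the Sostdc1/Fst cluster (SE 0.18, adjusted p = 0.0389), where it was at 33.0, 36.2, 50.2 and 54.8 CPM, and its effect in the upper hair follicle exceeded that in basal cells by 1.28 (SE 0.30, adjusted p = 0.0146). Periplakin (Ppl), a plakin of the cornified envelope, was at 828, 819.6, 556 and 533 CPM in the upper hair follicle and fell by 0.54 (adjusted p = 0.00322), and rose by 0.33 in keratinized cells (adjusted p = 0.0224). Kazrin (Kazn), a periplakin partner, rose by 0.46 in keratinized cells (adjusted p = 0.0118), and Pkp4, a plakophilin relative of both desmosomes and adherens junctions, rose by 0.40 in differentiated cells (adjusted p = 0.0190). Of this list of 9, 1 gene rose and none fell of 6 tested in the Sostdc1/Fst cluster, 1 rose of 7 in differentiated cells, 2 rose of 6 in keratinized cells and 1 fell of 6 in the upper hair follicle. None passed in basal, cycling or inner bulge-like cells or in all cells.

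Adherens junction genes, which join cells through actin and not keratin, moved in the upper hair follicle as well. Of 10 tested there 6 rose and 1 fell, with a median log2 fold change of 0.43 against -0.01 over all genes tested. P-cadherin (Cdh3) rose by 1.38 (adjusted p = 0.00497), Nectin1 by 0.71 (adjusted p = 0.00101) and vinculin (Vcl) by 0.61 (adjusted p = 0.0225). The median over the 10 desmosome genes in the same cells was -0.03. In basal cells none of the 10 adherens junction genes passed.

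Among 8 transcription factors of keratinocyte differentiation, 3 rose and 1 fell in basal cells, where none of the 10 desmosome genes passed and 2.47% of all genes tested rose and 1.31% fell. Ovol1, a repressor that acts as keratinocytes leave the basal layer, rose by 1.18 (adjusted p = 0.000150), Zfp750 by 0.69 (adjusted p = 0.0137) and Klf4 by 0.45 (adjusted p = 0.0119), and Trp63, the regulator of the basal state, fell by 0.33 (adjusted p = 0.0435). Dissociation genes, the immediate early and heat shock genes induced while tissue is digested, also rose there, 6 of 9 with a median of 0.43, as did 4 of 7 upper hair follicle markers (median 0.85) and 3 of 6 outer bulge markers tested (median 1.10). In the upper hair follicle none of the 8 factors passed.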

How the data were processed

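The authors trimmed the reads with fastp 0.23.2, mapped and counted them with STARsolo (STAR 2.7.10a) on GRCm39 with Gencode annotation, and deposited expected counts of UMIs per gene and barcode, in which reads that fit several genes were shared by expectation maximization, so values need not be whole and near-identical copies such as Dsg1a, Dsg1b and Dsg1c share reads. The deposited tables hold unfiltered barcodes.

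A barcode was taken as a cell from 1200 counts upwards and with no more than 20% of them mitochondrial. No doublet caller was run, so doublets are among the cells. Size factors came from scran 1.30.0. The 46 genes of the desmosome, adhesion, factor and dissociation lists were left out before 3000 variable genes were chosen. These gave 100 principal components, which Harmony, written anew from its description, aligned over mice. Leiden clustering (scanpy 1.11.5 with igraph 0.11.9) used 30 neighbours and resolution 0.8. Clusters took names from marker lists, of which a list needed 3 detected markers (mean log expression of at least 0.25), a limit set after the clusters had been seen. The desmosome genes, the other gene lists and the markers were chosen with earlier results of these data known.

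Counts were summed per mouse and class, rounded and tested with edgeR 4.0.16 (R 4.3.3) (TMM, filterByExpr, quasi-likelihood test, Benjamini-Hochberg over all genes of the class, threshold 0.05) in classes with at least 20 cells in each mouse. The script was tested on simulated counts. The genes named are the 10 desmosome genes, every other desmosome gene that passed, of each further list the 3 called genes of largest change in a class, and for each desmosome gene the 3 genes of highest correlation, which for Dsg3 are not reported here. With 2 mice per genotype the smallest two-sided p of an exact permutation test is 0.333, so the p-values rest on the spread shared across genes and measure the spread between these mice. If the mice were exchangeable, the genotypes would not overlap in a gene with this same probability of 0.333. The share of all genes in which they did not overlap was not counted. Levels across classes were not tested. Total counts per library were 39231945 to 53106317, and intervals and limits for counts of 0 cover counting error only. Alternatives tried were DESeq2 (1.42.0) and its size factors, no filter, each mouse left out, the replicate number as a block, other cell filters, other clusterings, and, added later, fits within clusters and with clusters reweighted.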

Additional observations from a re-analysis of the deposited data

Results flagged for a closer look

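The effect of genotype on Dsg3 and on Dsc2 differed between classes of cells by a test of the difference itself. In the upper hair follicle-like cells the log2 fold change of CerS4epi-/- over control exceeded that in the IFE basal-like cells by 1.43 for Dsg3 (SE 0.16, adjusted p = 3.89e-05, edgeR) and by 2.57 for Dsc2 (SE 0.52, adjusted p = 0.00611). The basal values of Dsc2 rest on 12 to 21 counts per mouse.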

How the results depend on the processing

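Of the 17 calls of desmosome genes, that of Dsc2 in the upper hair follicle (log2 fold change 1.76 to 3.43) held in every alternative run. It was not tested within the Krt79/Krt17 cluster. The calls of Dsg1a in the Sostdc1/Fst cluster (-1.44 to -0.62) and of Dsg3 in all cells (0.39 to 0.62) held in every alternative as well. The difference of Dsg3 between upper hair follicle and basal cells (1.22 to 1.67) held in its 6 alternatives. These did not include other clusterings, fits within clusters or reweighted clusters. The calls of Dsg3 in the upper hair follicle and Dsc3 in keratinized cells held in all but 1. Over 1184 alternative values of these genes, 1095 stayed on the same side of the threshold (55 of them uncalled values that changed sign). Another 65 no longer passed and 23 newly passed. In 1 a called value changed sign, that of Dsc1 in the upper hair follicle within the Krt79/Krt17 cluster (log2 fold change 0.016). The 1095 include values that were never called, and the 65 come only from the 17 calls, so 1095 of 1184 does not measure how stable the calls were. By the share of cells with a UMI after thinning, 7 of the 10 genes had the same highest class, and Dsp, Jup and Pkp1 were then highest in the inner bulge. A p near the threshold and 2 mice per genotype limit the smaller changes, and counts under 10 per mouse limit Dsc2. Values within the T cell-like level limit Dsg1a in the Sostdc1/Fst cluster and in cycling cells, and Dsc3 in keratinized cells. Keratinized cells were much deeper than T cell-like cells, so for Dsc3 this holds for CPM and not for counts per cell.

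The number of genes passing moved more. It was 2279 in all cells (950 to 2284 with each mouse left out, the lowest without CerS4epi-/- 2), 476 in basal (299 to 569, the lowest without CerS4epi-/- 2), 57 in cycling (0 to 307), 594 in the Sostdc1/Fst cluster (251 to 874), 1040 in differentiated (751 to 1079), 1600 in keratinized (1078 to 1256), 1906 in upper hair follicle (737 to 2006) and 24 in inner bulge-like cells (19 to 87). In cycling cells it was 0 without control 1 and 0 without control 2, with 564 and 551 genes at an unadjusted p under 0.05, 307 without CerS4epi-/- 1 and 190 without CerS4epi-/- 2. In the Sostdc1/Fst cluster it was 300 and 251, and in the upper hair follicle 737 and 891, without control 1 and control 2, and in the inner bulge 87 without control 1. DESeq2 gave 36 in cycling, 199 in the Sostdc1/Fst cluster, 615 in differentiated, 841 in keratinized (603 higher and 238 lower), 913 in upper hair follicle and 6 in inner bulge-like cells. Without a filter there were 1230 in basal, 287 in cycling, 903 in the Sostdc1/Fst cluster, 1919 in differentiated and 55 in inner bulge-like cells, and 29 in place of 219 for the difference between differentiated and basal cells. In cycling cells there were 112 with another seed, 120 without Harmony, 124 with no gene held out and 32 (28 higher and 4 lower) with at most 10% mitochondrial counts. In the upper hair follicle there were 886 at resolution 1.2, 1014 without Harmony, 982 and 601 within its 2 clusters and 1126 with clusters reweighted. In the inner bulge there were 104 without Harmony, 7 with no gene held out (5 higher and 2 lower) and 7 with at least 2000 counts per cell, which gave 373 in the Sostdc1/Fst cluster. The smaller differentiated and keratinized fits gave 362 (235 higher and 127 lower) within the larger differentiated cluster and 188 within the Lce1 cluster. The causes were not tested.

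Both genotypes have replicates 1 and 2, but the labels do not say that a number pairs mice, and the deviations of same-numbered mice correlated by -0.0397 to 0.105 over the classes. With the replicate number as a block, 1447 genes passed in basal, 107 in cycling, 1735 in differentiated and 3 in inner bulge-like cells. Of the desmosome genes, Dsg1a in all cells (adjusted p = 0.0569) and in the upper hair follicle (adjusted p = 0.0564) and Pkp3 in all cells (adjusted p = 0.0649) did not pass with the block, and Dsc1 in differentiated and keratinized cells and Pkp3 in differentiated cells passed with it.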
